A study of Mus musculus with 4 samples.

Results

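The fibroblast growth factor (FGF) ligands of the gastrulating mouse embryo were described in single-cell RNA-seq libraries of 3 stages. The members were fixed by name, as the count rows of *Fgf3*, *Fgf4*, *Fgf5*, *Fgf8*, *Fgf10*, *Fgf15* and *Fgf17*. All 7 were listed in each of the 3 count tables, out of 15, 12 and 15 FGF family rows and of 16639, 16341 and 18640 genes, going from MS-LS through OB-EB to EHF. MS-LS embryos (mid- to late streak) were dissected at E6+21h after tamoxifen at E6+5h, OB-EB embryos (no bud to early bud) at E7+3h after tamoxifen at E6+21h, and EHF embryos (early head fold) at E7+14h after tamoxifen at E7+7h, with tamoxifen given by oral gavage at 0.08 mg/bw. All libraries were of the genotype TnEGP-CreERT2/+; R26Rtdtomato/R26Rtdtomato, in which a tamoxifen-dependent Cre and a nuclear green fluorescent protein are made from the *T* locus. Cells expressing *T* at the time of tamoxifen or later, while it is active, can come to carry tdTomato, as can their descendants. There was no stage without tamoxifen and no control genotype. Each stage was 1 library from pooled embryos, and no label tied a cell to its embryo. The comparisons ask where each ligand is expressed and how this changes from the streak to the head fold.

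FGF ligands are secreted proteins that bind FGF receptor tyrosine kinases on neighbouring cells, and signal through adaptors such as Frs2 to the ERK kinase, which induces ETS transcription factors (Etv4, Etv5) and the feedback inhibitors Sprouty and Dusp6. *Fgf5* is a marker of the primed epiblast, while *Fgf8* and *Fgf4* are expressed in the primitive streak, where *Fgf8* is required for cells to move away from the streak. *Fgf17* is a close relative of *Fgf8*, *Fgf15* is the mouse counterpart of human *FGF19*, *Fgf3* is known from the posterior mesoderm and the inner ear, and *Fgf10* from limb and lung mesenchyme and the second heart field.

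The ligand genes were placed in GRCm38 by the GENCODE annotation. *Fgf3* (chr7:144838083-144844436), *Fgf4* (chr7:144847367-144865243) and *Fgf15* (chr7:144896531-144900953) are neighbours on the plus strand of chromosome 7, together spanning 62.9 kb with gaps of 2.93 kb and 31.3 kb and no other protein-coding gene inside. *Fgf5* lies at chr5:98254184-98277030 (plus strand), *Fgf8* at chr19:45736798-45742915 (minus strand), *Fgf10* at chr13:118669791-118792115 (plus strand) and *Fgf17* at chr14:70636203-70642268 (minus strand). *Fgf10* overlaps 1 annotated antisense gene and *Fgf15* overlaps 2. Promoter windows were given for 4 of the 7 ligands (*Fgf3*, *Fgf4*, *Fgf5* and *Fgf10*) in the RefSeq table for GRCm38.p6. The 3 printed here belong to 2 neighbours with unlike patterns (*Fgf3* and *Fgf4*) and to *Fgf5*. Each is the 230 bases that begin 250 bases before the RefSeq start, on the plus strand. The *Fgf3* and *Fgf4* windows lie inside the GENCODE spans of these genes given above, and the *Fgf5* window lies before its span. Overlap with annotated exons was not tested. Capitals mark a match to the GATA motif AGATAA (reverse complement TTATCT) or to the T-box motif TCACACC (reverse complement GGTGTGA). The motifs share no letters by overlap in these windows. Both strands were searched for motifs chosen after the ligand levels had been seen.
Fgf3 (chr7:144838362-144838591): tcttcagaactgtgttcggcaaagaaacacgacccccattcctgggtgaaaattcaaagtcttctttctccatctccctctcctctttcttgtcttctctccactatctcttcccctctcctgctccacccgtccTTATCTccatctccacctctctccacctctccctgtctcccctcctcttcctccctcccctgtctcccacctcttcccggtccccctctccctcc
Fgf4 (chr7:144861136-144861365): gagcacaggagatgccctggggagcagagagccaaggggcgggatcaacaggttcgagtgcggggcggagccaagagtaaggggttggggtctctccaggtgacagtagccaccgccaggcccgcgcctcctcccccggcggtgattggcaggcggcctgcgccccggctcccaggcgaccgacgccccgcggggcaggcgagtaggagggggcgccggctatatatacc
Fgf5 (chr5:98253934-98254163): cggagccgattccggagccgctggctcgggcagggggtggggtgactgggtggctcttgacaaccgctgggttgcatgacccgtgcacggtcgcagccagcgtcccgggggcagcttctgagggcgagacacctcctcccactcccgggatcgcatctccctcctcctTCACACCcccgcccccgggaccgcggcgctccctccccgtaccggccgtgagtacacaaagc
The *Fgf3* window held 1 GATA match on the minus strand, the *Fgf5* window held 1 T-box match on the plus strand, and the *Fgf4* and *Fgf10* windows held neither set of letters. Of 32851 RefSeq windows cut to the same 230 bases, 9.49% held the GATA letters and 3.07% the T-box letters.

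The libraries held 3635 (MS-LS), 3994 (OB-EB) and 3494 (EHF) cells with a median of 4251, 2620 and 5584 UMIs per cell, and a total of 17966956, 12181436 and 20376539 UMIs. Each pair of libraries shared 12 to 18 cell barcodes. The unit of level was CPM (a gene's UMIs scaled to 1000000 UMIs in the same cells), with an exact Poisson 95% interval, and ratios as log2 of CPM with an exact 95% interval for 2 Poisson counts. As each stage was a single library, no test across stages was possible, and these intervals cover counting error only, not the spread between embryos or libraries. In MS-LS and OB-EB, cell names were matched by barcode for 2313 and 1803 cells. All cells were also clustered again within each library without the FGF genes. Clusters whose markers identified them carry a name ending in "-like", and the others (8, 10 and 10 of 26, 25 and 29 clusters) a number with their leading genes. The matched names are those of the study, and whether the ligands took part in the study's own clustering was not given in the sources used here. Exe ectoderm-like cells, of the extra-embryonic trophoblast lineage, gave the background: their summed level of the 7 ligands was 14.0 CPM (MS-LS), 24.75 CPM (OB-EB) and 4.88 CPM (EHF), and 6.23%, 5.74% and 3.55% of these cells held a UMI of any ligand at a median of 4740, 3034 and 7137 UMIs per cell. Levels over a whole library mix the number of cells of a type with the level in those cells.

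*Fgf5* and *Fgf8* were the most abundant ligands of the early libraries and *Fgf3* of the EHF library. *Fgf5* measured 82.7 CPM (1486 UMIs) in MS-LS, 77.8 CPM (948 UMIs) in OB-EB and 3.04 CPM (62 UMIs) in EHF. *Fgf8* measured 91.8 CPM (1650 UMIs), 64.6 CPM (787 UMIs) and 24.8 CPM (505 UMIs) in the same order. *Fgf3* went the other way, from 18.65 CPM (335 UMIs) to 31.4 CPM (383 UMIs) and 57.2 CPM (1165 UMIs). Intervals of adjacent stages did not overlap for *Fgf3* and *Fgf8*, and those of *Fgf5* overlapped between MS-LS and OB-EB only. *Fgf15* measured 9.13, 14.6 and 19.5 CPM, and *Fgf10* 8.46, 10.4 and 7.21 CPM. *Fgf4* measured 1.503, 4.19 and 4.56 CPM, and *Fgf17* 1.61, 1.31 and 7.12 CPM. These last 2 ligands rested on few molecules in the early libraries, 27 and 51 UMIs for *Fgf4* and 29 and 16 UMIs for *Fgf17*. Of the 8, 5 and 8 other FGF family rows, only *Fgf13*, an FGF that acts inside cells, reached 100 UMIs in a library, with 111, 185 and 299 UMIs. The remainder summed to 46, 24 and 54 UMIs.

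From MS-LS to OB-EB, 1 of the 7 ligands was at least 2-fold higher and none at least 2-fold lower, where 6.27% and 4.33% of 12399 genes with at least 30 UMIs passed these limits. The ligand past the limit was *Fgf4*, with a log2 ratio of 1.48 (0.78 to 2.21). *Fgf3* (0.75, 0.54 to 0.97) and *Fgf15* (0.68, 0.36 to 0.99) were also higher beyond counting error, and *Fgf8* was lower (-0.51, -0.63 to -0.38). From OB-EB to EHF, 1 ligand was at least 2-fold higher and 2 were lower, against 19.1% and 6.57% of 13447 genes. *Fgf17* was the ligand that was higher, with a log2 ratio of 2.44 (1.69 to 3.28). *Fgf5* was lower by a log2 ratio of -4.68 (-5.07 to -4.305) and *Fgf8* by -1.38 (-1.55 to -1.22). *Fgf3* was just within the limit at 0.86 (0.69 to 1.03), and *Fgf4* did not differ beyond counting error (0.12, -0.38 to 0.65). The median log2 ratio of all genes tested was -0.06 from MS-LS to OB-EB and 0.37 from OB-EB to EHF, so the gains in EHF are smaller and the losses larger when read against it. The cell types of the libraries also differ, which leaves these whole-library values a mixture of composition and level.

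**Figure D1:**
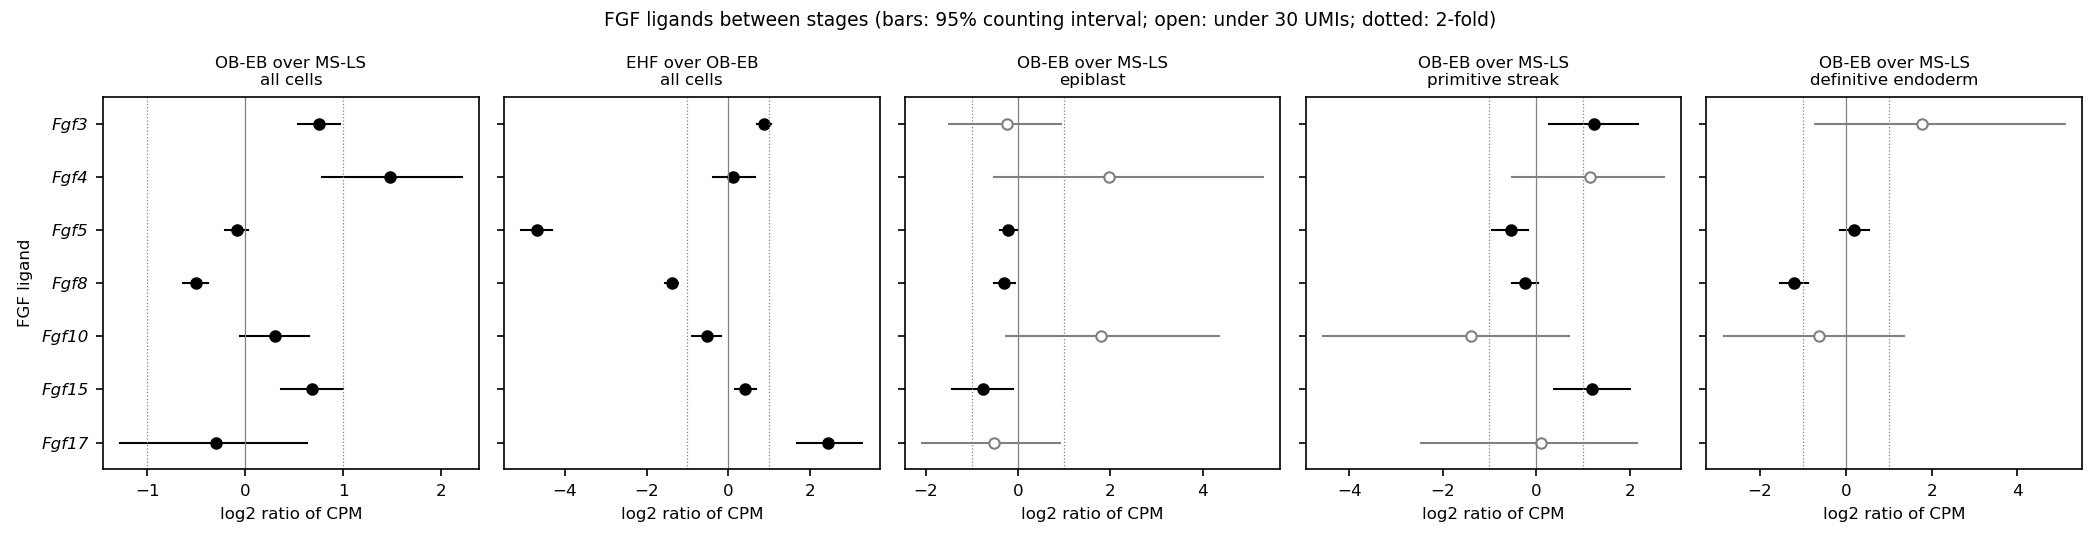
Log2 ratio of CPM between stages (x axis) for each FGF ligand (y axis) over all cells and in 3 cell sets named in the study. Points are the ratios, horizontal lines the exact 95% counting intervals, open points have under 30 UMIs over both libraries, and dotted lines mark 2-fold. Ratios that could not be formed because 1 side had no UMI are left out. *Fgf5* in the EHF comparison (-4.68) lies farthest from 0.

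**Figure D2:**
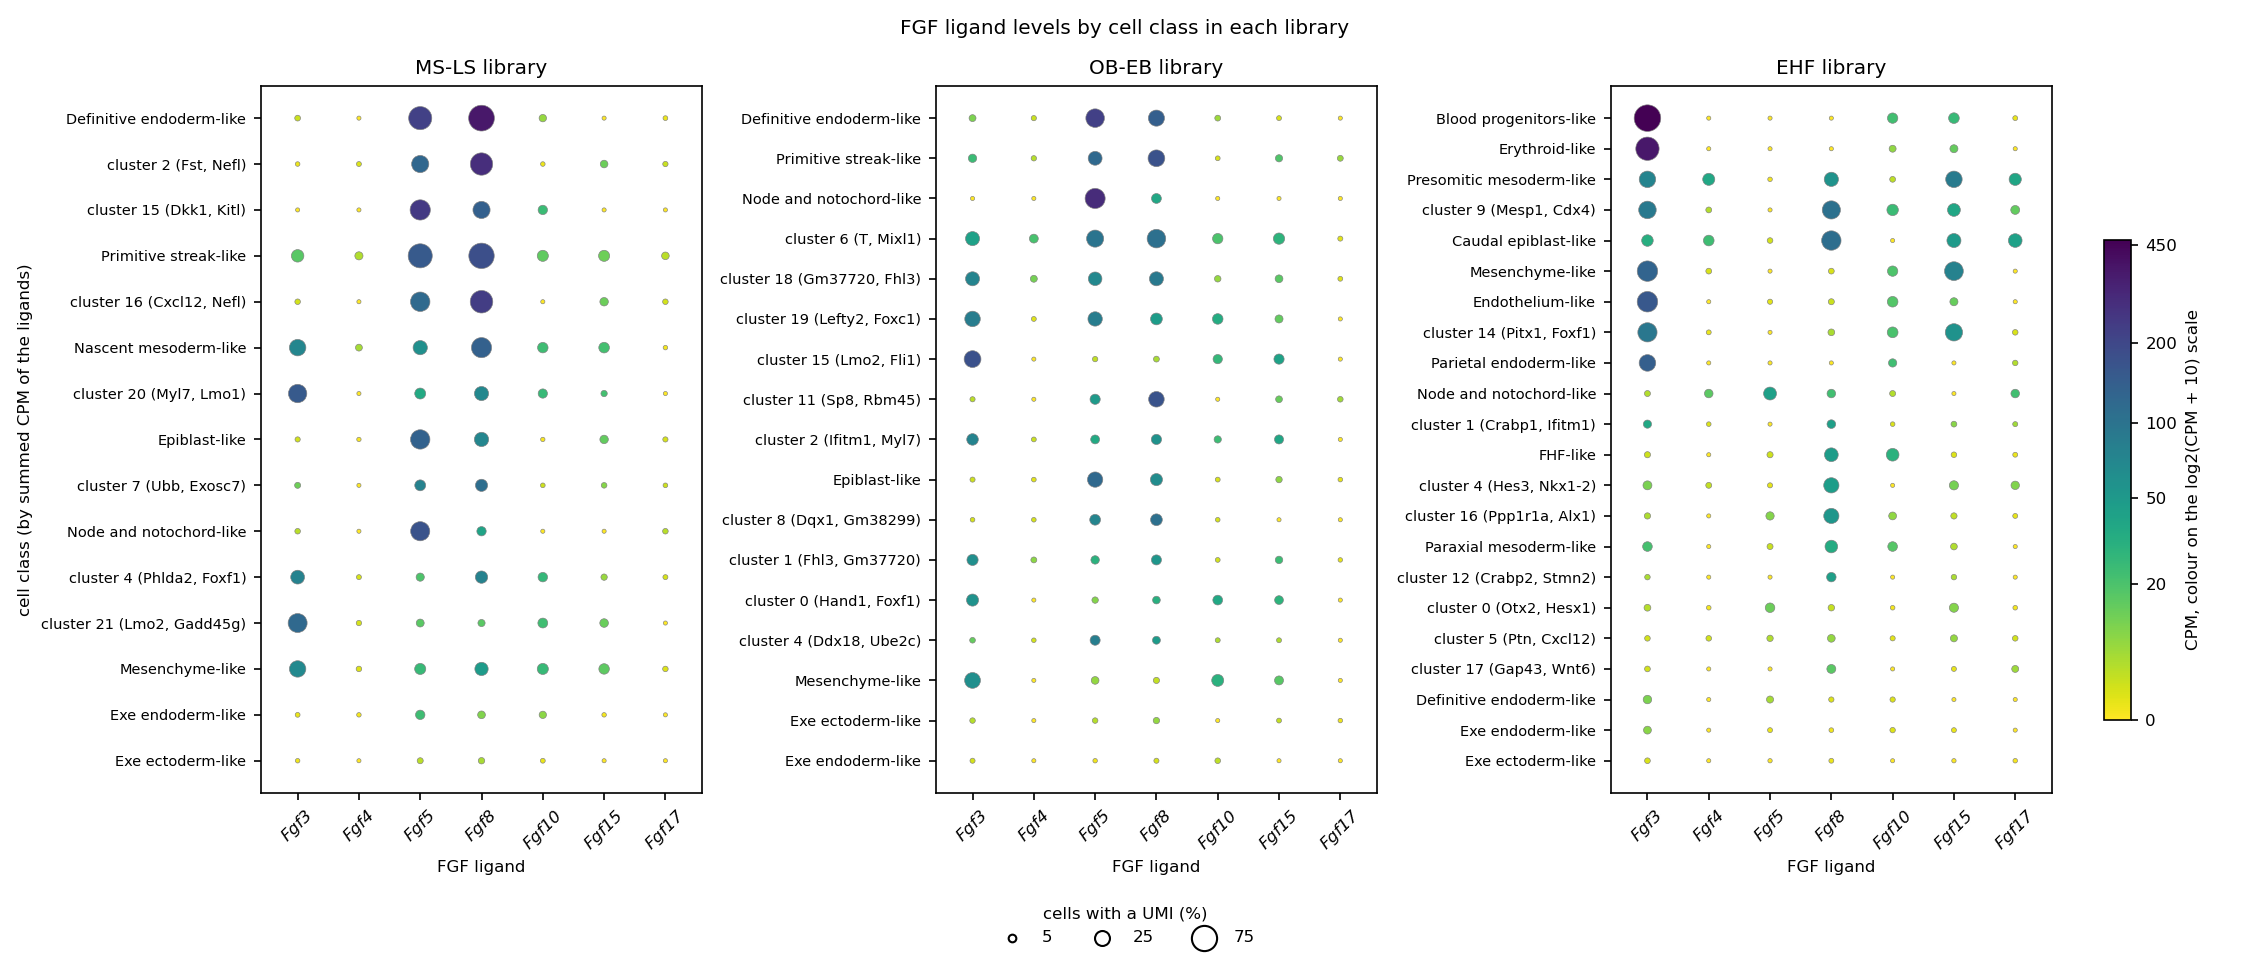
CPM (colour, on the log2(CPM + 10) scale) and percent of cells with a UMI (point area) of the 7 ligands (x axis) in each rebuilt class with at least 39 cells (y axis, ordered by summed CPM) of the 3 libraries. In MS-LS, Definitive endoderm-like cells are high for both *Fgf5* and *Fgf8* (216 and 366.5 CPM). Node and notochord-like cells there are high for *Fgf5* (168 CPM) but not for *Fgf8* (40.7 CPM). *Fgf3* leads the blood classes in EHF, and the Exe ectoderm-like row is pale throughout.

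In MS-LS, *Fgf8* was higher in the primitive streak and the definitive endoderm than in the epiblast, whereas *Fgf5* was higher in the endoderm and the anterior streak but not in the other streak cells. In MS-LS, *Fgf8* was highest in definitive endoderm at 390 CPM (345.6 to 438.6, 279 UMIs in 130 cells), followed by 236 CPM in anterior primitive streak (36 cells), 220 CPM (200 to 240, 318 cells) in primitive streak, 119 CPM in nascent mesoderm (363 cells), 83.7 CPM in epiblast (1001 cells), 45.4 CPM in lateral plate and extra-embryonic mesoderm (212 cells) and 11.0 CPM in endothelial and blood cells (75 cells). The log2 ratio of definitive endoderm over epiblast was 2.22 (1.99 to 2.445), and over primitive streak 0.83 (0.61 to 1.05). Anterior and other primitive streak cells did not differ beyond counting error for *Fgf8* (0.11, -0.40 to 0.58). *Fgf5* measured 230 CPM in anterior primitive streak, 211 CPM (178.8 to 247.6) in definitive endoderm, 139 CPM in primitive streak, 132 CPM (121 to 142) in epiblast, 54.95 CPM in nascent mesoderm and 19.01 CPM in lateral plate and extra-embryonic mesoderm. Primitive streak and epiblast did not differ beyond counting error for *Fgf5* (log2 ratio 0.07, -0.13 to 0.28), whereas nascent mesoderm stood below primitive streak for *Fgf5* (-1.335, -1.67 to -1.01) and for *Fgf8* (-0.88, -1.115 to -0.65). A UMI of *Fgf8* was found in 83.1% of MS-LS definitive endoderm cells (108 cells, median 4881 UMIs per cell) and of *Fgf5* in 63.85% (83 cells), against 2.92% and 2.335% of Exe ectoderm-like cells (median 4740 UMIs). After thinning each cell to 1500 UMIs, which left out none of these endoderm cells and 6 of 514 Exe ectoderm-like cells, the shares were 39.2% and 28.5% against 0.984% and 0.394%.

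Between the early libraries, *Fgf8* was lower in definitive endoderm, *Fgf5* was not, and the epiblast and streak values differed by less than 2-fold for both ligands. In definitive endoderm, *Fgf8* measured 390 CPM in MS-LS and 169.5 CPM (138.9 to 204.8, 107 UMIs in 190 cells) in OB-EB, a log2 ratio of -1.20 (-1.54 to -0.88). *Fgf5* in the same cells measured 211 and 242 CPM (log2 ratio 0.20, -0.13 to 0.53). Thus 1 of 2 ligands with at least 30 UMIs was at least 2-fold lower and none at least 2-fold higher, against 5.26% and 8.15% of 4394 genes. Of the MS-LS endoderm cells 26 of 130 had 4 or more *Fgf8* UMIs, and of the OB-EB cells 5 of 190, at median depths of 4881 and 2919 UMIs per cell. In the order of levels, *Fgf8* in OB-EB endoderm was no longer above primitive streak (-0.14, -0.52 to 0.23), whereas *Fgf5* was (1.35, 0.94 to 1.78). Summed definitive endoderm markers measured 1840 CPM (6 of 7 listed, all with UMIs) in MS-LS and 1456 CPM (7 of 7) in OB-EB, primitive streak markers 477 and 333 CPM (8 of 8 in both), and epiblast markers 879 and 952 CPM (8 of 8 in both). The part these play in the *Fgf8* difference was not tested.

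In epiblast cells, none of the 3 ligands with at least 30 UMIs passed 2-fold in either direction, against 6.29% (higher) and 2.84% (lower) of 9099 genes. *Fgf5* measured 132 CPM in MS-LS and 114 CPM (103 to 126) in OB-EB (log2 ratio -0.21, -0.39 to -0.02), and *Fgf8* 83.7 and 68.4 CPM (-0.29, -0.53 to -0.06). *Fgf15* was 14.1 and 8.34 CPM (-0.76, -1.43 to -0.11), with 66 and 30 UMIs. All 3 intervals lie below 0. *Fgf3*, *Fgf4*, *Fgf10* and *Fgf17* had fewer than 30 UMIs over both epiblast sets and were not read further.

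In primitive streak cells, 2 of 4 ligands with at least 30 UMIs were at least 2-fold higher in OB-EB and none was lower, against 3.83% and 8.12% of 6365 genes. They were *Fgf3*, with 10.95 CPM (23 UMIs in 318 cells) in MS-LS and 25.7 CPM (19 UMIs in 252 cells) in OB-EB (log2 ratio 1.23, 0.275 to 2.17), and *Fgf15*, with 14.8 CPM (31 UMIs) and 33.9 CPM (25 UMIs) (1.20, 0.38 to 2.005). *Fgf8* measured 220 and 187 CPM (-0.23, -0.52 to 0.05) and *Fgf5* 139 and 94.8 CPM (-0.55, -0.95 to -0.17). The calls for *Fgf3* and *Fgf15* rest on few molecules. When cells were thinned to 1500 UMIs the *Fgf3* ratio was 0.15, and with the rebuilt Primitive streak-like classes in place of the study's sets the ratios were 0.48 for both ligands, with intervals that include 0. Markers of other cell types moved with the stage in the same cells. Nascent mesoderm markers summed to 349 CPM in MS-LS and 704 CPM in OB-EB (7 of 7 with UMIs in both). Presomitic mesoderm markers summed to 40.0 CPM (5 of 6 listed genes with UMIs, *Hes7* at 0) and 160 CPM (6 of 6). Caudal epiblast markers summed to 117 CPM (7 of 7) and 424 CPM (6 of 8, *Cdx4* and *Epha5* at 0), and epiblast markers to 2308 and 1311 CPM (8 of 8 in both). Their part in the *Fgf3* and *Fgf15* values was not tested.

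The rebuilt classes, formed without the FGF genes, added node and visceral endoderm cells to this account. In Node and notochord-like cells, the ciliated midline cells at the tip of the streak, *Fgf5* measured 168 CPM (115.5 to 235.6, 59 cells) in MS-LS, 290 CPM (212.4 to 386.9, 62 cells) in OB-EB and 44.35 CPM (8 UMIs in 44 cells) in EHF. The OB-EB level was the highest of *Fgf5* in any class of that library, though not beyond counting error above Definitive endoderm-like cells (log2 ratio 0.39, -0.11 to 0.87). *Fgf8* in the same node cells stayed between 22.2 and 40.7 CPM. An unnamed MS-LS cluster led by *Dkk1* and *Kitl* (cluster 15, 128 cells) held *Fgf5* at 238 CPM and *Fgf8* at 138 CPM. Of the 3 Exe endoderm-like clusters in MS-LS, that led by *Spink1* and *Afp* held *Fgf5* at 77.0 CPM (57.5 to 101, 160 cells), while the other two held 3.602 and 10.4 CPM. Over the whole Exe endoderm-like class *Fgf5* measured 23.1 CPM (68 UMIs) in MS-LS and 0.936 CPM (1 UMI) in OB-EB, and neither of its clusters in OB-EB had *Spink1* or *Afp* among its leading genes.

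In the EHF library both ligands were at or under a few UMIs in the definitive endoderm. Definitive endoderm-like cells (75 cells) held *Fgf5* at 6.89 CPM (3 UMIs) and *Fgf8* at 2.30 CPM (1 UMI), against 221 and 142 CPM in the 242 OB-EB cells of that class, log2 ratios of -5.002 (-7.29 to -3.43) and -5.95 (-11.3 to -3.44). The OB-EB class joined a cluster led by *Cer1* and *Sox17* (*Fgf5* at 249 CPM, *Fgf8* at 169.5 CPM) with a smaller one led by *Spink1* and *Dkk1* (92.4 and 14.2 CPM), of which the last rested on 2 UMIs (1.722 to 51.36 CPM), with an interval that overlaps that of the EHF value. Outside the node, *Fgf5* in EHF was highest in an unnamed cluster led by *Otx2* and *Hesx1* (cluster 0), markers of the anterior neural plate, at 13.9 CPM (8.59 to 21.2), which held 33.9% of the *Fgf5* UMIs in 5.72% of the cells. Cluster 0 was not beyond counting error above the unnamed cluster 16 at 10.6 CPM (log2 ratio 0.38, -0.91 to 1.86). *Fgf8* in EHF was highest in Caudal epiblast-like cells at 111 CPM (91.0 to 133, 110 UMIs in 170 cells) and in an unnamed cluster led by *Mesp1* and *Cdx4* (cluster 9, 145 cells) at 105 CPM (85.25 to 129), which did not differ beyond counting error (0.07, -0.34 to 0.48). Presomitic mesoderm-like cells followed at 56.0 CPM, lower than cluster 9 (log2 ratio of cluster 9 over them 0.91, 0.46 to 1.37). FHF-like cells, with the markers of the first heart field, held *Fgf8* at 46.9 CPM (33.5 to 63.9), close to an unnamed cluster with *Alx1* and *Tcf15* among its leading genes (cluster 16) at 53.2 CPM and one led by *Hes3* and *Nkx1-2* (cluster 4) at 46.6 CPM. Neighbours in this order from Presomitic mesoderm-like cells downward did not differ beyond counting error.

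**Figure D3:**
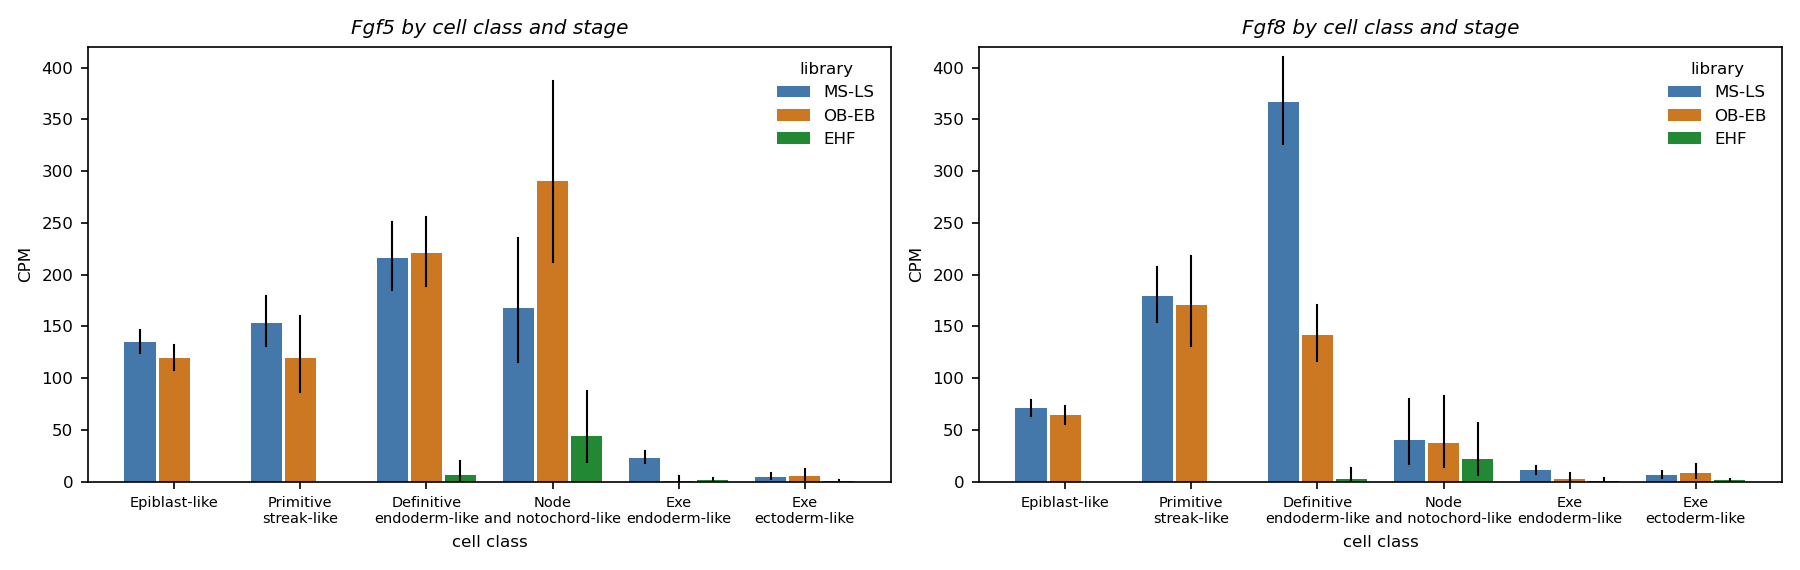
CPM (y axis) of *Fgf5* and *Fgf8* in 6 rebuilt cell classes (x axis) of the 3 libraries (colours), with the exact Poisson 95% interval as a line on each bar. No EHF class carried the name Epiblast-like or Primitive streak-like, so these have no EHF bar. *Fgf8* in Definitive endoderm-like cells measured 366.5 CPM in MS-LS, 142 CPM in OB-EB and 2.30 CPM in EHF.

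*Fgf3* reached its higher levels in mesodermal cells and, in EHF, also in Parietal endoderm-like cells. It was highest in endothelial and blood cells in OB-EB and in the blood classes in EHF. In MS-LS it measured 124 CPM (90.5 to 166, 45 UMIs) in endothelial and blood cells, 85.8 CPM (73.2 to 100, 164 UMIs) in nascent mesoderm and 72.9 CPM (56.7 to 92.2, 69 UMIs) in lateral plate and extra-embryonic mesoderm, and only 10.95 CPM in primitive streak, 3.63 CPM in epiblast and 2.80 CPM in definitive endoderm. Endothelial and blood cells stood just beyond counting error above nascent mesoderm (log2 ratio 0.53, 0.02 to 1.015). Lateral plate and extra-embryonic mesoderm did not differ from nascent mesoderm beyond counting error (-0.24, -0.66 to 0.18). A rebuilt MS-LS cluster made up of nascent mesoderm cells (cluster 20, 72 cells) held 152 CPM. Nascent mesoderm over primitive streak was 2.97 (2.335 to 3.67). In OB-EB, endothelial and blood cells held 177 CPM (140 to 220, 80 UMIs in 142 cells), not beyond counting error above MS-LS (0.51, -0.03 to 1.07). The rebuilt OB-EB cluster in which 97.2% of cells were of this set (cluster 15) held 175 CPM. It stood above the next class of at least 50 cells, at 84.5 CPM (log2 ratio 1.05, 0.48 to 1.64). In EHF, Blood progenitors-like cells held 464 CPM (415.6 to 517, 331 UMIs in 128 cells) and Erythroid-like cells 365 CPM (320.5 to 414.2, 241 UMIs in 158 cells), a log2 ratio of 0.35 (0.10 to 0.59). Endothelium-like cells were clearly lower at 158.5 CPM (log2 ratio of Erythroid-like over them 1.20, 0.84 to 1.575), followed by Parietal endoderm-like cells at 141 CPM, Mesenchyme-like cells at 130 CPM, an unnamed cluster led by *Pitx1* and *Foxf1* (cluster 14) at 92.7 CPM, cluster 9 at 89.8 CPM and Presomitic mesoderm-like cells at 73.6 CPM. Endothelium-like, Parietal endoderm-like and Mesenchyme-like cells could not be told apart in this order by counting error, whereas Mesenchyme-like cells stood above cluster 14 (0.49, 0.04 to 0.95). The Blood progenitors-like and Erythroid-like cells made up 3.66% and 4.52% of the EHF cells and held 28.4% and 20.7% of the *Fgf3* UMIs.

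At the deposited depth, most cells of both blood classes held an *Fgf3* UMI. A UMI was present in 83.6% of the Blood progenitors-like cells (median 5283 UMIs) and 63.9% of the Erythroid-like cells (median 4143 UMIs), against 1.88% of the Exe ectoderm-like cells (median 7137 UMIs). Thinned to 1500 UMIs the shares were 48.8%, 36.4% and 0.209%, with 1, 18 and 1 cells left out as too shallow. Of the 128 Blood progenitors-like cells, 37 had 4 or more *Fgf3* UMIs and the highest had 12. The Erythroid-like class joined clusters 18 and 25, with 390 CPM (339 to 447.3) and 262 CPM (181.4 to 366.1), and a UMI in 81.2% of 101 cells (median 5135 UMIs) and 33.3% of 57 cells (median 1910 UMIs). Blood progenitor markers (7 of 7 with UMIs in both classes) summed to 624 CPM in both, and erythroid markers to 1489 CPM (6 of 7) in Blood progenitors-like and 6380 CPM (7 of 7) in Erythroid-like cells. In Parietal endoderm-like cells, the extra-embryonic cells that lay down Reichert's membrane, *Fgf3* was found in 31.25% of 64 cells, while 1 of 7 blood progenitor markers and 1 of 7 erythroid markers had any UMI there, at summed levels of 5.64 and 22.6 CPM. Between OB-EB and EHF, *Fgf3* in Mesenchyme-like cells went from 60.8 CPM (14 UMIs in 39 cells) to 130 CPM (100 UMIs in 101 cells), a log2 ratio of 1.10 (0.29 to 2.02).

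**Figure D4:**
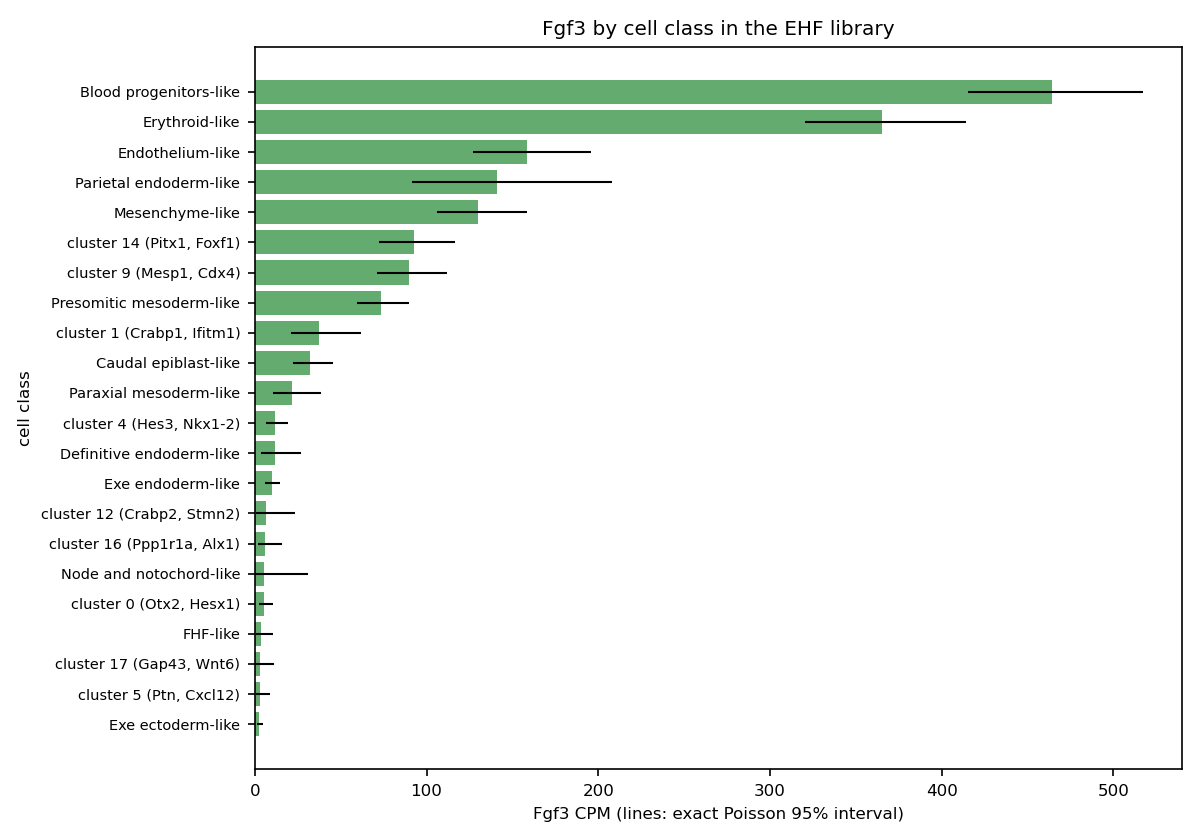
*Fgf3* CPM (x axis) in each rebuilt EHF class with at least 39 cells (y axis), with the exact Poisson 95% interval as a line. Blood progenitors-like (464 CPM) and Erythroid-like cells (365 CPM) stand above every other class, the next being Endothelium-like cells at 158.5 CPM.

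*Fgf4*, *Fgf17* and *Fgf15* shared the caudal end of the EHF library, with *Fgf15* reaching farther into mesoderm. *Fgf4* measured 37.6 CPM (27.8 to 49.7, 49 UMIs) in Presomitic mesoderm-like and 23.15 CPM (14.7 to 34.7, 23 UMIs) in Caudal epiblast-like cells, which held 52.7% and 24.7% of its UMIs. Caudal epiblast-like cells stood above the next class of at least 50 cells, cluster 9 at 5.55 CPM, by a log2 ratio of 2.06 (0.63 to 3.81). *Fgf17* measured 43.3 CPM (31.3 to 58.3, 43 UMIs) in Caudal epiblast-like and 39.1 CPM (29.1 to 51.4, 51 UMIs) in Presomitic mesoderm-like cells, indistinguishable by counting error (0.15, -0.47 to 0.76), and 15.5 CPM in cluster 9, the next class of that size (log2 ratio of Presomitic mesoderm-like over it 1.33, 0.46 to 2.30). The smaller Node and notochord-like class (44 cells) lay above cluster 9 on few molecules, with *Fgf4* at 16.6 CPM (3 UMIs) and *Fgf17* at 22.2 CPM (4 UMIs). Presomitic mesoderm-like cells were 2 clusters that differed in these ligands. The cluster led by *Gal* and *T* (cluster 19, 101 cells) held *Fgf4* at 60.7 CPM (41.8 to 85.2), *Fgf17* at 71.7 CPM (51.0 to 98.1) and *Fgf8* at 79.1 CPM (57.2 to 106.5). The cluster led by *Aldh1a2* and *Tbx6* (cluster 8, 149 cells) held the same ligands at 21.0 CPM (12.02 to 34.2), 15.8 CPM (8.15 to 27.6) and 39.4 CPM (26.6 to 56.3). *Fgf15* was alike in both, at 91.97 and 84.1 CPM, and so was *Fgf3*, at 80.9 and 68.4 CPM. A UMI of *Fgf17* was found in 20.6% and of *Fgf4* in 11.8% of Caudal epiblast-like cells (median 5620 UMIs), against 0.418% and none of 479 Exe ectoderm-like cells (median 7137 UMIs). Thinned to 1500 UMIs the Caudal epiblast-like shares were 5.92% and 2.37%, with 1 of 170 cells left out. With coarser clustering (resolution 2) the Presomitic mesoderm-like class held 316 cells and *Fgf4* measured 11.7 CPM in it.

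*Fgf15* was highest in EHF at 87.4 CPM (72.1 to 105, 114 UMIs) in Presomitic mesoderm-like and 76.8 CPM (58.5 to 99.1, 59 UMIs) in Mesenchyme-like cells, followed by 57.9 CPM in cluster 14, 49.3 CPM in Caudal epiblast-like cells and 38.8 CPM in cluster 9. No neighbours in this order differed beyond counting error. In Mesenchyme-like cells it had been 17.4 CPM in OB-EB (4 UMIs in 39 cells, log2 ratio of EHF over OB-EB 2.145, 0.71 to 4.07). *Fgf4* and *Fgf8* in these EHF cells were at 2.605 CPM each, with 2 UMIs. In MS-LS, *Fgf15* measured 20.9 CPM in nascent mesoderm, 14.8 CPM in primitive streak and 14.1 CPM in epiblast, and no UMI in the 130 definitive endoderm cells, which allows up to 3 UMIs there. The rebuilt Nascent mesoderm-like class of MS-LS was uneven, with *Fgf15* at 38.98 CPM (25.5 to 57.1, 26 UMIs in 163 cells) in 1 of its clusters and 9.72 CPM (4.445 to 18.45, 9 UMIs in 112 cells) in the other. In OB-EB, *Fgf15* was 41.98 CPM (25.3 to 65.6) in endothelial and blood cells, 33.9 CPM in primitive streak and 8.34 CPM in epiblast. Among the rebuilt OB-EB clusters, cluster 15, mostly of endothelial and blood cells, held *Fgf15* at 41.6 CPM. Other unnamed clusters followed at 38.6 CPM (cluster 2), 29.3 CPM (cluster 6), 29.1 CPM (cluster 0) and 24 CPM (cluster 1). Neighbours among these clusters did not differ beyond counting error. *Fgf4* in OB-EB was highest in an unnamed cluster led by *T* and *Mixl1* (cluster 6, 201 cells) at 21.05 CPM (13.3 to 31.6), which held 45.1% of its UMIs. Cluster 6 was not beyond counting error above the next class of at least 50 cells, the unnamed cluster 18 at 12.6 CPM (log2 ratio 0.74, -0.59 to 2.33).

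**Figure D5:**
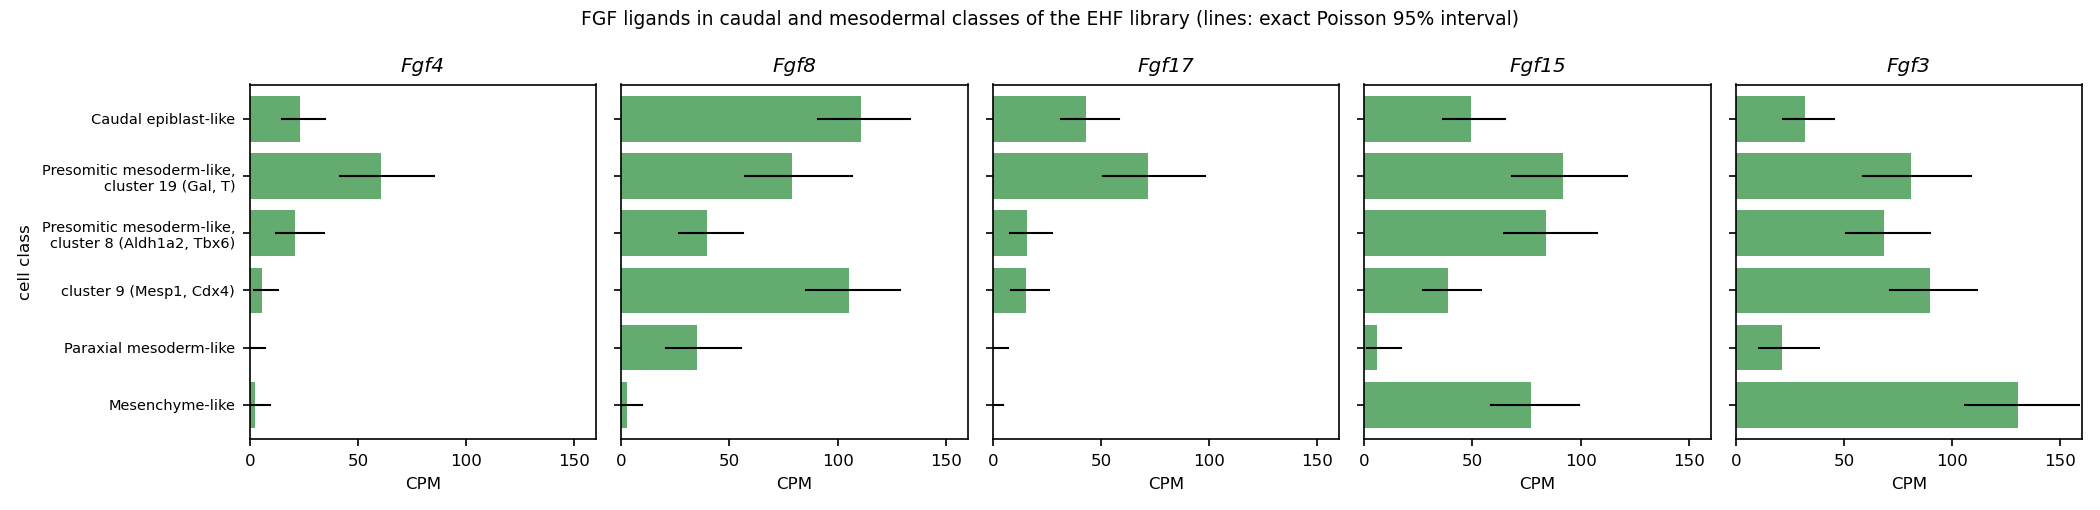
CPM (x axis) of 5 ligands (panels) in caudal and mesodermal classes of the EHF library (y axis), with the 2 Presomitic mesoderm-like clusters drawn apart and the exact Poisson 95% interval as a line. *Fgf4* and *Fgf17* are highest in the cluster led by *Gal* and *T* (60.7 and 71.7 CPM), *Fgf8* in Caudal epiblast-like cells (111 CPM) and *Fgf3* in Mesenchyme-like cells (130 CPM).

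*Fgf10* reached its higher levels in mesodermal cells and in some extra-embryonic endoderm. In MS-LS it measured 27.5 CPM (17.9 to 40.2, 26 UMIs) in lateral plate and extra-embryonic mesoderm and 27.2 CPM (20.3 to 35.7, 52 UMIs) in nascent mesoderm, alike within counting error (0.01, -0.73 to 0.72), against 7.14 CPM in primitive streak and 0.641 CPM in epiblast. Nascent mesoderm over primitive streak was 1.93 (1.08 to 2.865). The Exe endoderm-like cluster of MS-LS led by *Spink1* and *Afp* held *Fgf10* at 23.7 CPM (13.5 to 38.5, 16 UMIs in 160 cells). In OB-EB it was 37.0 CPM (24.6 to 53.5) in an unnamed cluster led by *Hand1* and *Foxf1* (cluster 0) and 26.5 CPM in endothelial and blood cells. In EHF it was 30.5 CPM (19.9 to 44.7, 26 UMIs) in FHF-like cells, 24.4 CPM in cluster 9, 22.6 CPM (6.149 to 57.8, 4 UMIs in 64 cells) in Parietal endoderm-like cells and 22.4 CPM in Blood progenitors-like cells, and no neighbours among its 9 highest classes differed beyond counting error. FHF-like cells with a *Fgf10* UMI were 17.5% (21 of 120 cells, median 6448 UMIs), and none of the Exe ectoderm-like cells (median 7137 UMIs) had one. Thinned to 1500 UMIs the FHF-like share was 4.17%, with no cell left out. The paper took *Fgf8* and *Fgf10* among its markers of the anterior heart field, its pharyngeal mesoderm cluster. No EHF class of at least 50 cells carried a name for pharyngeal mesoderm. Whether FHF-like cells include cells of that field was not tested.

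Some cells held UMIs of more than 1 ligand, and at equal depth few did. Any ligand was found in 47.7%, 37.2% and 34.75% of the cells from the earliest stage to the latest, and 2 or more in 16.9%, 8.51% and 10.4%. Thinned to 1500 UMIs, any ligand was found in 24.5%, 24.2% and 15.2% and 2 or more in 2.915%, 2.84% and 1.29%, with 101, 406 and 165 cells left out. MS-LS definitive endoderm was highest with any ligand in 92.3% of its cells. A UMI of both *Fgf5* and *Fgf8* was found in 71 of 130 MS-LS definitive endoderm cells, where the product of the single shares gives 68.95, in 126 of 318 primitive streak cells (product 113.1) and in 121 of 1001 epiblast cells (product 107.4). After thinning, the counts were 12 (product 14.5), 21 (15.7) and 17 (19.4). In OB-EB the counts were 33 (product 28.2), 21 (18.65) and 60 (45.75) in the same cell sets, and after thinning 7 (product 9.195), 5 (6.51) and 18 (15.8). Both ligands together exceeded the product in each of these sets before thinning, and lay on both sides of it in both libraries after thinning. In EHF Presomitic mesoderm-like cells before thinning, *Fgf3* and *Fgf15* were found together in 30 of 250 cells (product 23.7), and *Fgf8* and *Fgf17* in 15 (product 8.96). This class joined clusters 19 and 8, with an *Fgf8* UMI in 32.7% and 15.4% of their cells and an *Fgf17* UMI in 28.7% and 7.38%. The part of this joining in the count of both was not tested. Cells of different depth within a set raise such counts above the product, and cells of 1 library are not replicates.

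tdTomato marks EHF cells that expressed *T* at E7+7h or later, while tamoxifen was active, and the descendants of such cells. Over all EHF cells, the 403 cells with a tdTomato UMI had higher levels than the 3091 without one of *Fgf4* (19.5 against 2.51 CPM, log2 ratio 2.96, 2.34 to 3.58), *Fgf8* (65.8 against 19.15 CPM, 1.78, 1.502 to 2.055), *Fgf17* (18.7 against 5.53 CPM, 1.76, 1.22 to 2.28) and *Fgf15* (47.5 against 15.6 CPM, 1.60, 1.28 to 1.92), at median depths of 5698 and 5565 UMIs. *Fgf3*, *Fgf5* and *Fgf10* did not differ beyond counting error. The labelled cells were concentrated in the caudal classes: 125 of 250 Presomitic mesoderm-like, 68 of 145 cluster 9, 47 of 170 Caudal epiblast-like and 31 of 87 Paraxial mesoderm-like cells carried the label. Within Presomitic mesoderm-like cells and within cluster 9, no ligand differed beyond counting error between labelled and unlabelled cells. Within Caudal epiblast-like cells *Fgf8* was higher with the label (150 against 92.1 CPM, 0.70, 0.13 to 1.27), and within Paraxial mesoderm-like cells it was lower (10.6 CPM, 2 UMIs, against 49.5 CPM, -2.22, -5.39 to -0.13). No other ligand differed beyond counting error within any of these classes. The Caudal epiblast-like values rest on 48 labelled and 62 unlabelled *Fgf8* UMIs, and 1 cell of the class held 12. Whether that cell carried the label was not examined. Cells without a tdTomato UMI may include labelled cells in which none was sampled.

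Each ligand was then set beside the genes with the most similar levels, by Pearson correlation of log2(CPM + 10) over 52 classes of the 3 libraries among 9505 genes. The classes share 3 libraries and their depths, so these values are descriptions. *Fgf3* was nearest to *Tgfb1* (r = 0.82), *Fam212a* (0.79) and *Ppic* (0.73). *Fgf4* was nearest to *Sh3gl3* (0.70), *Gal* (0.70) and *Chst7* (0.68). *Fgf5* was nearest to *Gm37760* (0.82), *Gsc* (0.81) and *Blnk* (0.81), where *Gsc* encodes a homeobox factor of the anterior streak. *Fgf8* was nearest to *Paip2* (0.76), *Vrtn* (0.76) and *Mixl1* (0.75), the last a homeobox factor of the streak. *Fgf10* was nearest to *Ppp3ca* (0.79), *Ppic* (0.79) and *Braf* (0.74), *Fgf15* to *Sall3* (0.73), *Zeb2* (0.68) and *Rspo3* (0.68), and *Fgf17* to *Hes7* (0.80), an oscillating repressor of the segmentation clock, *Gal* (0.76) and *Nefm* (0.76). Among the ligands themselves, *Fgf5* and *Fgf8* correlated most (0.71), then *Fgf3* and *Fgf10* (0.65), *Fgf4* and *Fgf17* (0.65), *Fgf3* and *Fgf15* (0.64) and *Fgf4* and *Fgf15* (0.56). The neighbours *Fgf3* and *Fgf4* had a value of 0.22.

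Receptors, adaptors, targets and feedback inhibitors of the pathway were read from a list of 20 gene names, of which 19 were in the tables. Those named below for passing the limit, other than *Spry4*, *Dusp6*, *Etv4* and *Etv5*, were picked out after their values were seen. From MS-LS to OB-EB none of 19 with enough UMIs was at least 2-fold higher and 2 were lower (*Frs3* and *Klb*), against 6.27% and 4.33% of all genes, and their median log2 ratio was -0.31 against -0.06 for all genes. From OB-EB to EHF, 4 of 18 were higher (*Fgfr2*, *Fgfr3*, *Etv4* and *Klb*) and 3 lower (*Spry2*, *Dusp6* and *Etv1*), against 19.1% and 6.57%, with a median of 0.16 against 0.37. The receptor *Fgfr1* measured 37.7, 56.1 and 82.7 CPM in MS-LS, OB-EB and EHF. *Dusp6*, an ERK phosphatase, measured 84.1, 94.2 and 31.3 CPM, the last a log2 ratio of -1.59 (-1.73 to -1.45) below OB-EB. *Etv5* measured 58.3, 44.2 and 29.05 CPM, and *Etv4* 14.7, 10.3 and 23.5 CPM (log2 ratio of EHF over OB-EB 1.20, 0.91 to 1.49). *Spry4* measured 8.07, 4.515 and 5.79 CPM. *Spry2*, a Sprouty inhibitor, measured 182, 323 and 15.75 CPM, a log2 ratio of EHF over OB-EB of -4.36 (-4.53 to -4.195). In epiblast cells 1 of 14 pathway genes was lower in OB-EB (*Spry4*, 6.835 and 2.50 CPM) and none higher, against 2.84% and 6.29% of all genes. In primitive streak cells 1 of 9 was higher (*Spry2*, 116 and 549 CPM) and none lower, against 3.83% and 8.12%. In definitive endoderm 1 of 6 was lower (*Etv5*, 46.1 and 20.6 CPM) and none higher, against 5.26% and 8.15%.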

How the data were processed

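The libraries were made with droplet-based 3′ chemistry with UMIs. Per the labels, the authors' processing used Cell Ranger 3.0.2, R 3.6.1 and Seurat 3 with GRCm38, with annotation of Ensembl and added tdTomato vector sequences. The deposited tables hold UMI counts per gene and cell, kept by the authors at 500 genes and 1000 UMIs or more and by mitochondrial share. The 4 tables gave 3 libraries, as the second EHF table held the same values as the first and was not counted. All deposited cells were used.

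Counts were summed over cells and given as CPM. Each library was clustered alone (Seurat 5.3.0 in R 4.3.3, scale factor 10000, 2000 variable genes, 50 components, resolution 4.5) with the FGF ligands, the pathway list and vector features held out, and clusters were named from marker lists. Cell names by barcode came from the study's supplement for MS-LS and OB-EB, a list cut short there being used as far as it went. Intervals are exact (Poisson, Clopper-Pearson or conditional binomial, 95%, scipy 1.17.1). Against no UMI, a floor of 3 UMIs was used. A gene was called at 2-fold with at least 30 UMIs over both groups. With 1 library per stage there was no test and no p-value. Named genes were the 7 ligands, for each the 3 most similar genes with at least 200 UMIs, and *Fgfr1*, *Spry4*, *Dusp6*, *Etv4* and *Etv5* of the pathway. Scrublet, as in scanpy 1.11.5, marked 0.248%, 0% and 0.401% of cells as doublets at its automatic limit, so as an alternative the 5% of cells with the highest scores were left out. Other alternatives were depth and mitochondrial limits, thinning, rebuilt classes, scaling, clustering resolution and fold limits. The ratio code was tested on simulated data. The members and lists were chosen with earlier results of these data known.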

Additional observations from a re-analysis of the deposited data

Results flagged for a closer look

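For *Fgf5*, the change from MS-LS to OB-EB went in opposite directions in a pair of rebuilt classes. In Exe endoderm-like cells the log2 ratio of OB-EB over MS-LS was -4.63 (-9.95 to -2.10, 1 and 68 UMIs), and in Node and notochord-like cells 0.79 (0.11 to 1.48, 46 and 33 UMIs). The difference between the classes was not tested, as each stage was 1 library. In MS-LS, 52 of the 68 Exe endoderm-like UMIs came from the cluster led by *Spink1* and *Afp*. The OB-EB cluster led by *Spink1* and *Dkk1* (51 cells, *Fgf5* at 92.4 CPM) was named Definitive endoderm-like. The libraries were clustered apart, and whether this cluster matches the MS-LS cluster led by *Spink1* and *Afp* was not tested.

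For *Fgf15*, the same comparison gave -0.76 (-1.43 to -0.11, 30 and 66 UMIs) in epiblast cells and 1.20 (0.38 to 2.005, 25 and 31 UMIs) in primitive streak cells. This difference was not tested either.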

How the results depend on the processing

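No paired analysis was possible because each stage was 1 library, so that no replicate number could join samples, and no replicate could be left out. Of the log2 ratios in epiblast, primitive streak and definitive endoderm cells, 122 alternative values stayed within the counting interval of the main value. The 2 exceptions came from thinning to 1500 UMIs, with *Fgf17* in epiblast at 1.135 and *Fgf3* in primitive streak at 0.15, and the cause was not tested. *Fgf8* in definitive endoderm stayed between -1.38 and -1.08. Of the class levels, 116 stayed within the counting interval of the main level, the 3 exceptions being *Fgf15* in OB-EB Primitive streak-like cells with FGF genes allowed in the clustering (46.7 CPM) and *Fgf4* and *Fgf15* in EHF Presomitic mesoderm-like cells at resolution 2 (11.7 and 53.5 CPM). At resolution 2, 7 class levels could not be formed because no cluster carried the name (MS-LS Mesenchyme-like, OB-EB Primitive streak-like and EHF Blood progenitors-like). With a 1.5-fold limit, 3 ligands were higher from MS-LS to OB-EB (14.7% of all genes past the same limit), 2 higher from OB-EB to EHF (38.9%) and 1 lower in epiblast (1096 of 9099 genes). Of the pathway genes, 3 were then higher (14.7%) and 5 lower (14.8%) from MS-LS to OB-EB, 6 higher (38.9%) and 5 lower (12.2%) from OB-EB to EHF, 3 higher (16.8%) and 1 lower (1096 of 9099) in epiblast, and 2 higher (10.7%) and 1 lower (21.8%) in primitive streak. With a minimum of 1 UMI, 2 ligands were higher in epiblast (17.9%), and 3 higher (14.5%) and 1 lower (26.0%) in primitive streak, while 3 pathway genes were lower in epiblast (12.2%) and 3 in primitive streak (26.0%). Median-of-ratios scaling changed no count of ligands. Of 49 alternative log2 ratios whose main interval excludes 0 none changed sign, and of the other 75, 8 did, the *Fgf17* value above among them. Depth limits *Fgf4* and *Fgf17* most, at 16 to 51 UMIs in an early library, and OB-EB cells were the shallowest.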
